A study of Sus scrofa with 16 samples.

Results

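The transcripts of 9 complement proteins were followed in subcutaneous fat of 16 pigs: C1QA, C1QB, C1QC, C1R, C1S and C4A of the classical pathway, CFB and CFD of the alternative pathway, and C3, on which both pathways meet. Probes were taken from the 16 scanner files if they were no control spots, carried a member's symbol as gene name and were well above background on at least 8 arrays. That rule gave 9 probes of 4 genes (C1QA, C1S, C3 and CFB). The other 5 genes, C1QB, C1QC, C1R, C4A and CFD, were present under other names, and 10 further probes were matched to members by the gene description in the files or by a RefSeq accession. All 19 probes were well above background on all 16 arrays, out of 32097 probes kept in the whole data set, and the 9 genes are among 4150 with a symbol and a kept probe. A gene with several probes is represented by the one with the highest mean signal, taken among the rule's own probes where the rule gave any. For C1S a probe matched by description was brighter than the one used.

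The pigs came from lines selected on residual feed intake, the feed eaten beyond what growth and maintenance predict: 8 pigs of the low-RFI line (strain RFIneg) and 8 of the high-RFI line (strain RFIpl). All 16 had free access to feed and were sampled at 20 kg body weight, and neither sex nor age is stated in the labels. Each pig's RNA was read on 1 one-colour array, so each value is 1 animal. Pigs are numbered 1 to 8 within each line. The labels do not say what the numbers stand for, and replicates 5-8 were set against replicates 1-4 only because the numbering allows it. Whole fat was sampled, so fewer cells of a type and less RNA per cell cannot be told apart.

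Complement is a cascade of plasma proteins that tags microbes, immune complexes and dying cells. In the classical pathway C1q, built from the chains of C1QA, C1QB and C1QC, binds the target and switches on the proteases C1r and C1s, which cut C4 and C2. In the alternative pathway factor D, the product of CFD, cuts factor B, the product of CFB, once factor B is bound to C3b. Both routes yield an enzyme that cuts C3. The liver supplies much of the plasma protein, but macrophages are a main source of C1q, stromal cells make C1r, C1s and C4, and factor D, also called adipsin, is a classic secretory product of adipocytes. In the RefSeq gene table of the pig assembly Sscrofa11.1, C1QA, C1QC and C1QB are adjacent protein-coding genes, as are C1R and C1S.

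Designed 60-base probes behind the main results are shown because they define which transcript each value counts. The files place none of them on the genome, so no position is given. The first 5 are the representative probes of C1QB, C1QC, C1S, C4A and C3, read 5′ to 3′.
C1QB: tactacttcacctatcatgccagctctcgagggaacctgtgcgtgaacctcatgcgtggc
C1QC: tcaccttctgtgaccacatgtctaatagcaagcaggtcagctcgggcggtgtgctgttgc
C1S: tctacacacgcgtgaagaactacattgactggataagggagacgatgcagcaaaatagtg
C4A: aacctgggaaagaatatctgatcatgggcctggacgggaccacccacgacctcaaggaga
C3: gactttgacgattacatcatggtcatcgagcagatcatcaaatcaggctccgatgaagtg
Between probes of different member genes the longest shared run was 10 bases, between C4A and C3. Another pair, both named C3, read almost the same stretch. Capitals mark the 39 bases they share.
C3, first overlapping probe: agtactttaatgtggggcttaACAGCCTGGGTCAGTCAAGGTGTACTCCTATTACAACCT
C3, second overlapping probe: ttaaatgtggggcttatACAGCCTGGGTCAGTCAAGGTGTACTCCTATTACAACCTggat
These overlapping C3 probes, and likewise the CFD pair with a shared run of 52 bases, are close to repeated readings of 1 site. The probes of C4A and C1S shared no run above 7 bases and read separate stretches. A probe for C4A would also bind near-identical C4 copies, where an animal carries them.

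Values are log2 signals relative to the 75th percentile of the same array, so 0 is that percentile and 1 unit is a 2-fold step. The 3 C4A probes differed in mean brightness on the same RNA, so no level is set against that of another probe. Probes of 1 gene ranked the pigs alike. Over the 16 arrays, as a description, Pearson's r between probes of a gene was 0.96 to 1.0 for the 5 C3 probes, 0.98 to 0.99 for the 3 C4A probes, 0.93 to 0.97 for the 4 C1S probes and 0.97 for the CFD pair.

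Between 68.7% and 80.3% of spots were well above background on each array, and correlation between arrays across probes was 0.944 to 0.989. Adipocyte markers averaged 5.33 to 6.0 over their 13 measured genes on every array, so the label of fat tissue was borne out on each. Several arrays stood apart. High-RFI replicate 5 was the highest array for all 9 genes and for 18 of the 19 probes, while 11.3% of all kept probes peaked there. Low-RFI replicate 8 had a mean skeletal muscle marker level of 6.0 over 11 genes, against -2.69 to -0.55 on the other arrays. High-RFI replicates 6 and 2 had the highest epithelium marker levels, 0.09 and -1.24 over 4 genes, against -4.63 to -2.79 on the others. Complement results are therefore given with and without high-RFI replicate 5, and without low-RFI replicate 8 where that changed a statement.

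The C1q chains varied widely between pigs and did not separate the lines. C1QA had a lowest, median and highest value of 0.86, 1.71 and 2.49 in low-RFI pigs, against 1.04, 1.79 and 4.12 in high-RFI pigs. C1QB had 1.49, 2.73 and 3.35 in low-RFI pigs, against 1.90, 2.62 and 5.0 in high-RFI pigs. C1QC had -0.68, 0.71 and 1.2 in low-RFI pigs, against -0.24, 0.50 and 2.77 in high-RFI pigs. In each chain the lines overlapped over most of their range, and the highest high-RFI value was replicate 5. That pig exceeded the mean of the other 15 by 2.43 log2 units for C1QA (5.41-fold), 2.48 for C1QB (5.57-fold) and 2.34 for C1QC (5.07-fold). Low-RFI replicate 7 had the lowest value of all 3 chains.

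C1R and C1S, the proteases of the C1 complex, had narrower ranges. C1R had a lowest, median and highest value of 5.33, 5.90 and 6.55 in low-RFI pigs, against 5.29, 5.73 and 7.38 in high-RFI pigs. C1S had 3.52, 4.13 and 4.57 in low-RFI pigs, against 3.60, 3.96 and 5.67 in high-RFI pigs. The lines overlapped again, and high-RFI replicate 5 lay 2.96-fold above the mean of the other pigs for C1R and 3.11-fold for C1S.

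C4A, whose protein carries the C4b that forms the C3-cutting enzyme with C2, had the largest SD of the classical genes. Its lowest, median and highest values were 2.14, 4.08 and 4.62 in low-RFI pigs, against 2.52, 3.82 and 5.44 in high-RFI pigs. The SD over 16 pigs was 1.0, and 95.9% of kept probes had a smaller one. Without high-RFI replicate 5 the highest pig had 4.85 and the lowest 2.14.

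C3, the protein cleaved by both pathways, was high in 2 pigs of different lines. Its lowest, median and highest values were -1.55, -0.54 and 1.27 in low-RFI pigs, against -1.36, -0.46 and 2.14 in high-RFI pigs. Low-RFI replicate 3 gave the 1.27 and high-RFI replicate 5 the 2.14, while all other pigs lay between -1.55 and 0.19. CFB had -0.80, 0.50 and 1.81 in low-RFI pigs, against 0.10, 0.67 and 2.55 in high-RFI pigs. Its highest pigs were the same as for C3.

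CFD was the steadiest of the 9. Its lowest, median and highest values were 5.94, 6.25 and 6.61 in low-RFI pigs, against 5.83, 6.11 and 6.69 in high-RFI pigs. The SD over 16 pigs was 0.24, and 34.2% of kept probes had a smaller one, against 92.9% for CFB and 95.5% for C3. High-RFI replicate 5 was the highest pig here too, but only 1.41-fold above the mean of the others.

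**Figure D1:**
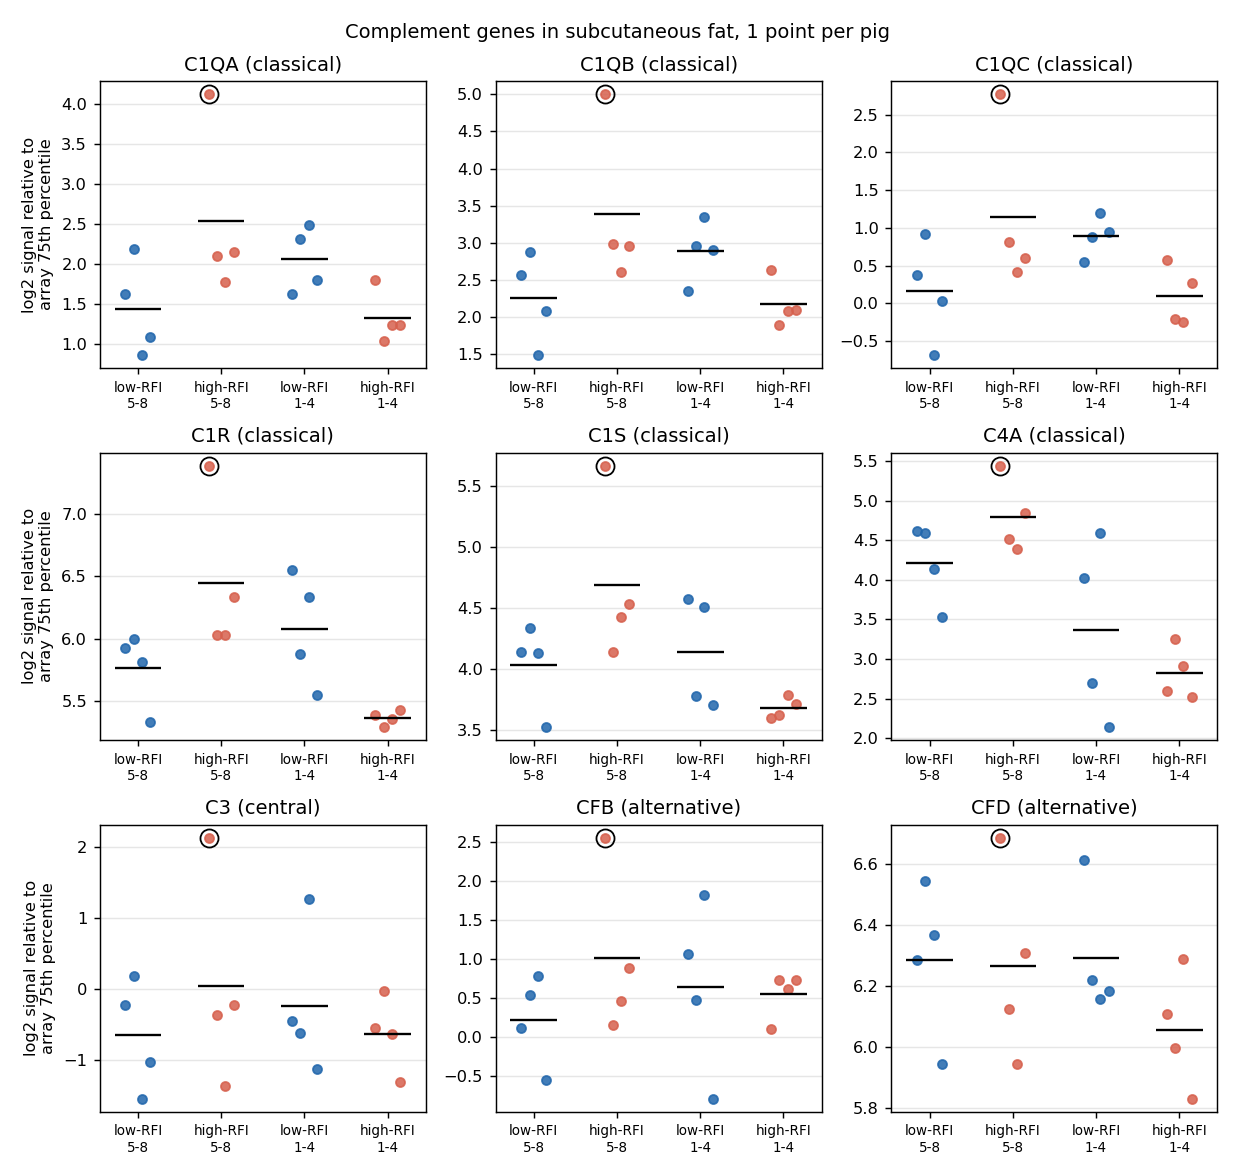
Log2 signal relative to the array's 75th percentile for the 9 complement genes (representative probe), 1 point per pig, by line (low-RFI blue, high-RFI red) and replicate set, with the mean of each 4 pigs as a bar. The ringed point is high-RFI replicate 5, the highest pig for each gene, from 7.38 for C1R to 2.14 for C3.

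Between the lines, 0 of the 9 genes and 0 of the 19 probes passed the threshold (limma, adjusted p under 0.05), with 0.0% of the 32097 probes called. At an unadjusted p under 0.05 it was 0 of 9 genes, against 3.68% of all probes. The largest difference was that of CFB, at -0.35 log2 (SE 0.38, 95% interval -1.15 to 0.44, adjusted p = 1.0 in limma). Differences of the other genes, low-RFI minus high-RFI, were -0.21 for C1QB, -0.19 for C1QA, -0.15 for C3, -0.10 for C1S and for C1QC, -0.02 for C4A, 0.02 for C1R and 0.13 for CFD. The interval for CFD ran from -0.13 to 0.39, which is 0.911- to 1.31-fold. For C4A it ran from -1.03 to 0.99, which is 0.488- to 1.99-fold, so about 2-fold in either direction. The median over the 9 genes was -0.10, against -0.0001 over all probes. Without high-RFI replicate 5 the differences of C1QA, C1QB, C1QC, C1S, C3 and C4A changed sign, to 0.13, 0.10, 0.21, 0.11, 0.20 and 0.21. That of CFB was then -0.10, that of C1R 0.23 and that of CFD 0.20, and none of the 9 passed. The line differences of all 9 genes had both signs across the 4 slides, each of which held 2 low-RFI and 2 high-RFI pigs, so the slides did not share a direction for any gene.

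Replicates 5-8 and 1-4 differed in C4A alone among the 9 genes. The low-RFI replicates 5-8 had C4A values of 4.62, 4.59, 4.14 and 3.53, and high-RFI replicates 5-8 had 5.44, 4.52, 4.40 and 4.85. The low-RFI replicates 1-4 had 4.02, 2.70, 4.59 and 2.14, and high-RFI replicates 1-4 had 2.60, 3.25, 2.91 and 2.52. Replicates 5-8 were thus higher except against low-RFI replicates 1 and 3, which lay inside their range. Within the high-RFI line the sets did not overlap. The difference was 1.42 log2 (SE 0.34, 95% interval 0.70 to 2.14, adjusted p = 0.0297 in limma), or 2.68-fold. A second C4A probe passed as well (1.31, adjusted p = 0.0432 in limma) and the third did not (1.28, adjusted p = 0.0502 in limma). Thus 1 of 9 genes and 2 of 19 probes passed, all higher in replicates 5-8, where 5.18% of all probes were called, 1.99% higher and 3.18% lower. At an unadjusted p under 0.05 it was 1 of 9 genes, against 23.5% of all probes.

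The C4A difference was positive on each of the 4 slides, from 0.94 to 1.68. It was 1.28 without high-RFI replicate 5 (adjusted p = 0.0474 in limma) and 1.57 without low-RFI replicate 8 (adjusted p = 0.0232 in limma). It missed the threshold when any of 8 other pigs was left out (low-RFI replicates 2, 4 and 5, high-RFI replicates 1, 3, 4, 7 and 8), with adjusted p = 0.0512 to 0.0634 in limma. It also missed it with another background correction (1.34, adjusted p = 0.151 in limma). What separates the sets is not stated, and the share of all probes called was itself moved by single pigs.

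The other 8 genes did not pass between replicates 5-8 and 1-4. C1S had 0.45 (95% interval -0.08 to 0.98, adjusted p = 0.287 in limma), and its other 3 probes had up to 0.68 (adjusted p = 0.136 in limma). At an unadjusted p under 0.05 it was 5 of the 19 probes, against 23.5% of all probes. They were all 3 of C4A and 2 of the 4 of C1S, and probes of 1 gene are not independent results. C1R had 0.38 (95% interval -0.17 to 0.94). The C1q chains had 0.16 to 0.30, and these turned to between -0.16 and -0.02 without high-RFI replicate 5. C3 had 0.13, CFD 0.10 and CFB 0.02. Without high-RFI replicate 5, C3 had -0.24 and CFB -0.25, and 5 of the 9 genes were then negative. In the high-RFI line C1R, C1S and C4A did not overlap between the sets, all higher in replicates 5-8, where 16.4% of all probes did not overlap, 6.19% higher. In the low-RFI line 0 of the 9 genes were free of overlap, where 4.41% of all probes were.

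**Figure D2:**
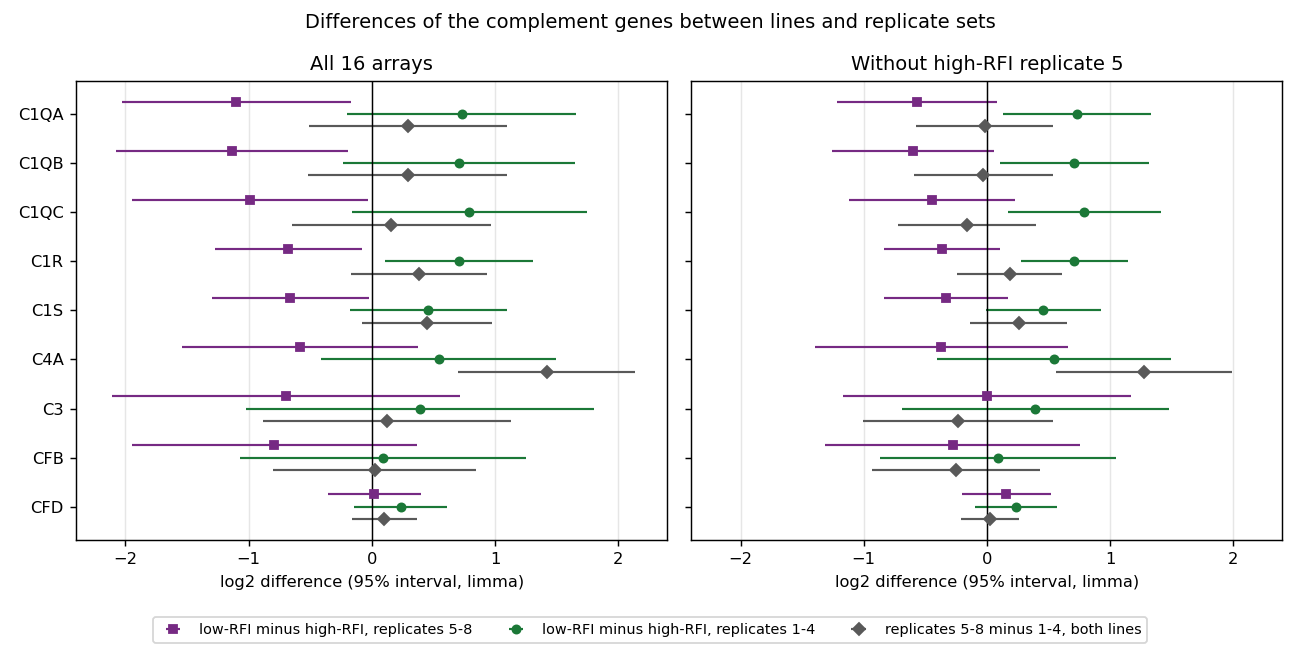
Log2 differences of the 9 complement genes with 95% intervals from limma: low-RFI minus high-RFI within replicates 5-8 (purple squares) and within replicates 1-4 (green circles), and replicates 5-8 minus 1-4 over both lines (grey diamonds), with all 16 arrays (left) and without high-RFI replicate 5 (right). C4A has the largest set difference, 1.42 on the left and 1.28 on the right, and the line differences of the C1 genes lie on opposite sides of 0 in the sets.

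The line difference had opposite signs in the sets for most members, without any passing the test. Within replicates 5-8, low-RFI pigs were below high-RFI pigs on average in 8 of 9 genes, against 16071 of all 32097 probes. Within replicates 1-4 they were above them in 9 of 9, against 15577 of 32097 probes. Without high-RFI replicate 5 the counts were 7 of 9 and 9 of 9. Genes that rise and fall together over pigs are not independent results. C1R showed the opposite signs most clearly. Its values in replicates 5-8 were 5.92, 5.99, 5.81 and 5.33 in low-RFI pigs, against 7.38, 6.03, 6.03 and 6.33 in high-RFI pigs. In replicates 1-4 they were 6.55, 5.88, 6.33 and 5.55 in low-RFI pigs, against 5.39, 5.29, 5.36 and 5.43 in high-RFI pigs. The lines did not overlap in either set for C1R, and overlapped in both sets for the other 8 genes. Among all probes 2.91% did not overlap in replicates 5-8, 1.57% lower in low-RFI pigs, and 3.64% did not overlap in replicates 1-4, 1.95% higher in low-RFI pigs.

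Within replicates 5-8 the line difference was -0.68 for C1R, -0.66 for C1S, -1.10 for C1QA, -1.14 for C1QB and -0.99 for C1QC. Within replicates 1-4 it was 0.71 for C1R, 0.46 for C1S, 0.73 for C1QA, 0.71 for C1QB and 0.79 for C1QC. For 0 of 9 genes was either difference called, with 0.0% of all probes called in each set (limma). At an unadjusted p under 0.05 it was 5 of 9 genes within replicates 5-8, against 5.79% of all probes, and 1 of 9 within replicates 1-4, against 6.34%.

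Without high-RFI replicate 5 the line differences within replicates 5-8 were -0.36 for C1R, -0.33 for C1S, -0.57 for C1QA, -0.60 for C1QB and -0.45 for C1QC. C4A had -0.37 (-0.58 with that pig), CFB -0.28 (-0.79), C3 0.0003 (-0.70) and CFD 0.16 (0.02). At an unadjusted p under 0.05 it was then 0 of 9 genes within replicates 5-8, against 4.13% of all probes, and 4 of 9 within replicates 1-4, against 6.86%. By adjusted p, 0 of 9 passed in either set (limma).

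The difference between the sets' line differences was -1.39 for C1R (SE 0.40, 95% interval -2.24 to -0.54, adjusted p = 0.704 in limma). It was -1.83 for C1QA, -1.85 for C1QB, -1.78 for C1QC and -1.12 for C1S. For C4A it was -1.13, for C3 -1.09, for CFB -0.88 and for CFD -0.22. By this test 0 of 9 genes were called, with 0.0% of all probes called (limma). At an unadjusted p under 0.05 it was 5 of 9 genes, those of C1, against 6.81% of all probes, and these 5 rise and fall together over pigs, so they are not 5 independent results. The median over the 9 genes was -1.13, against 0.003 over all probes. Without high-RFI replicate 5 it was -1.07 for C1R, -1.30 for C1QA, -1.31 for C1QB, -1.24 for C1QC, -0.79 for C1S, -0.91 for C4A, -0.39 for C3, -0.37 for CFB and -0.08 for CFD. By adjusted p 0 of 9 then passed (limma), and at an unadjusted p under 0.05 it was 5 of 9, against 6.14% of all probes. On each slide, which held 1 pig of every line and set, the value was negative on 4 of 4 slides for the C1 genes, C4A and C3, on 3 of 4 for CFB and on 2 of 4 for CFD.

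Over the 16 pigs the complement genes rose and fell together, in tight groups. The C1q chains had Pearson's r of 0.97 to 0.99 with each other. C1R and C1S had r = 0.97 (Spearman's rho = 0.94, adjusted permutation p = 9e-05 for both). C4A followed C1S (r = 0.82, adjusted permutation p = 0.000216; rho = 0.77, adjusted permutation p = 0.00677) more than C1QC (r = 0.40, adjusted permutation p = 0.122; rho = 0.30, adjusted permutation p = 0.300). C3 had r of 0.77 to 0.81 with the C1q chains and 0.74 with CFB. CFD had its highest r with C1R, 0.71, and its lowest with C1QC, 0.45. Of the 36 pairs, 28 passed an adjusted permutation p of 0.05 by Pearson's r and 13 by Spearman's rho. The smallest p that the 100000 permutations can give is 1e-05, which all C1q pairs and C1R with C1S reached.

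Much of this rested on 1 pig. Without high-RFI replicate 5, 6 of 36 pairs passed by Pearson's r and 5 by Spearman's rho, and the median r over pairs was 0.45, against 0.71 with it. The 6 pairs were those among the C1q chains (r = 0.92 to 0.97), C1R with C1S (0.94), C1S with C4A (0.82) and C1R with C4A (0.72). The r of C1q with CFB was then 0.03 to 0.22, and that of C1q with CFD was 0.12 to 0.24. C3 with the C1q chains had 0.52 to 0.59. Leaving out the 2 pigs farthest from the median of the first gene gave 0.91 to 0.97 among the C1q chains, 0.93 for C1R with C1S and 0.86 for C1S with C4A, but 0.21 for C3 with CFB.

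Within the low-RFI line the C1q chains had r of 0.93 to 0.98 and C1R with C1S 0.93 (n = 8, exact permutation test, adjusted p = 0.00469 for C1R with C1S). Within the high-RFI line they had 0.98 to 1.0 and 0.99 (n = 8, exact permutation test, adjusted p = 0.00491 for C1R with C1S). C1S with C4A had 0.72 within the low-RFI line and 0.89 within the high-RFI line (n = 8 each, exact permutation test, adjusted p = 0.164 and 0.00676). C1q with C4A had -0.15 to -0.01 within the low-RFI line and 0.70 to 0.78 within the high-RFI line, the line that holds replicate 5, and the difference between lines was not tested. In replicates 5-8 the C1q chains had 0.99 and C1R with C1S 0.99. In replicates 1-4 they had 0.91 to 0.97 and 0.94 (n = 8 each, exact permutation test, adjusted p = 0.00357 in replicates 5-8 and 0.0234 in replicates 1-4 for C1R with C1S). By Spearman's rho C1R with C1S had 0.93 in replicates 5-8 and 0.69 in replicates 1-4 (n = 8 each, exact permutation test, adjusted p = 0.0201 and 0.299), so by rho the pair did not pass in replicates 1-4. Within the low-RFI line its rho was 0.98 and within the high-RFI line 0.86 (n = 8 each, exact permutation test, adjusted p = 0.00714 and 0.0482). On residuals from the means of line by set, which remove both, 28 of 36 pairs passed by Pearson's r and 20 by Spearman's rho. High-RFI replicate 5 is still among these residuals, and no count without it is given, so they cannot show whether the pairs hold without that pig. Permuting residuals makes no allowance for the means taken out, so both counts may be too high. Slides held 4 arrays each, too few for a correlation.

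**Figure D3:**
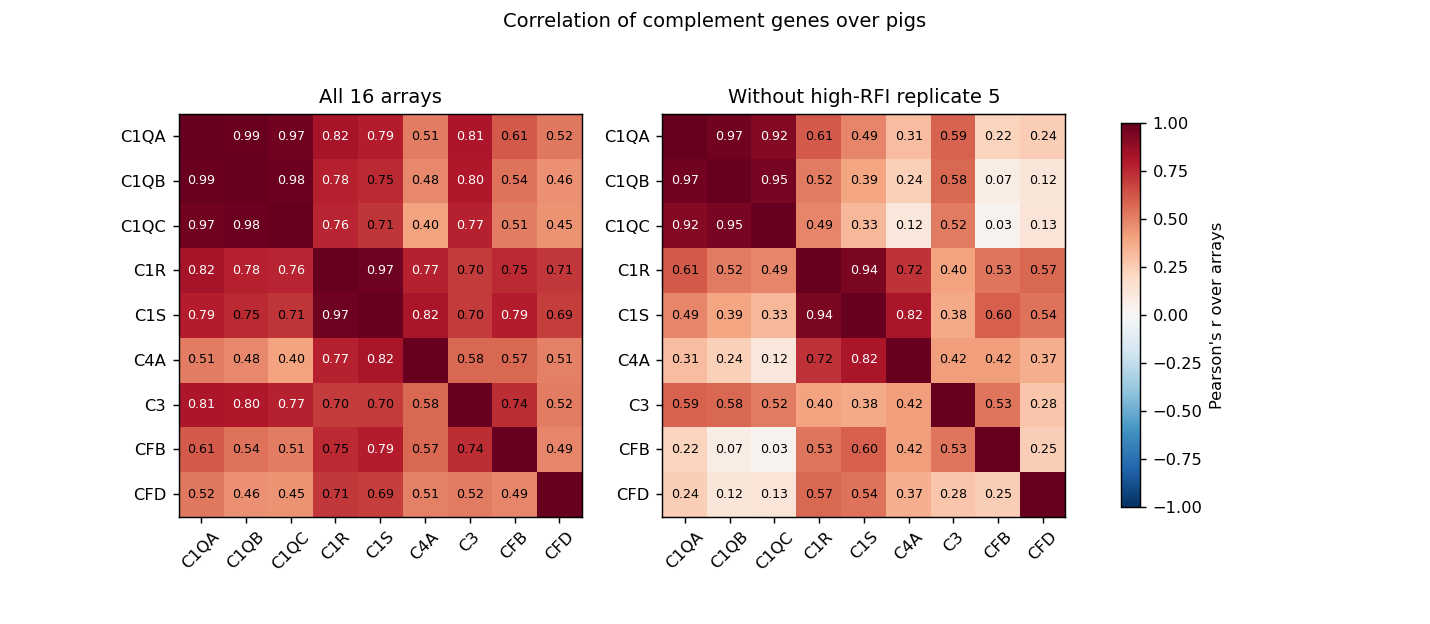
Pearson's r over pigs between the 9 complement genes with all 16 arrays (left) and without high-RFI replicate 5 (right), on a colour scale from -1 (blue) to 1 (red). The C1q block (0.97 to 0.99 on the left, 0.92 to 0.97 on the right) and the pair of C1R and C1S (0.97 and 0.94) hold, while the r of C1q with CFB goes to 0.03 to 0.22 on the right.

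Each member was also set against 4052 other genes with a symbol, as a description over 16 pigs and without a test. The median r with other genes lay between -0.10 for C4A and -0.02 for CFB. The genes most like C1QA were CFP (r = 0.92), which encodes properdin, the stabiliser of the alternative pathway enzyme, CD209 (0.91), a lectin receptor of macrophages and dendritic cells, and the cytokine gene IL10 (0.89). For C1QB they were CFP (0.92), CD209 (0.91) and CD14 (0.91), and for C1QC they were CD53, CD209 and VNN2 (0.90 each). C1R was followed by CD209 (0.89), CAMKK2 and LIPC (0.86 each). C1S was followed by FES, CD209 and ACSL5 (0.89 each). For C4A they were IGFBP5, a binder of insulin-like growth factors, the peptidase gene XPNPEP2 (0.94 each) and MMP14 (0.92), a membrane-bound matrix protease. For C3 they were SNX33 (0.81), CFP (0.80) and DOK1 (0.77). For CFB they were TBC1D10A, PITPNC1 and APOL3 (0.80 to 0.81), and for CFD they were SERPING1 (0.83), which encodes the inhibitor of C1r and C1s, ST3GAL4 (0.76) and DIS3L2 (0.75). Of these 27 places, 8 were kept without high-RFI replicate 5, among them IGFBP5 for C4A (r = 0.96) and SERPING1 for CFD (0.78). COL14A1, a collagen gene named after its values were seen, then came first for C1R and C1S with r = 0.89 for both, against 0.46 and 0.41 over all 16 pigs. VSIG4, a macrophage receptor for C3 fragments and one of the listed complement receptors, then came first for C1QA (r = 0.84) and C1QB (r = 0.86).

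Of the other complement genes on the array, 21 were measured, and 2 passed a test. CD59 and VTN, whose products hold back the terminal complex, were lower in replicates 5-8 by limma, with -0.78 for CD59 (adjusted p = 0.011) and -0.80 for VTN (adjusted p = 0.0171). They were 2 of 8 measured inhibitors and properdin, where 3.18% of all probes were lower. CFP, CD46, CD55, SERPING1 and CLU of that list had set differences of -0.39 to 0.56, and none of these passed. None of 6 classical and lectin genes, 4 terminal genes and 3 receptors passed in any comparison (limma). Their smallest p between the lines, as values only, belonged to C2 (-0.47) and MASP1 (0.17), C5 (0.22) and C8G (-0.09), and ITGB2 (-0.52) and C5AR1 (-0.19). Between the sets they belonged to FCN2 (0.94) and FCN1 (0.45), C9 (-0.50) and C8G (-0.17), and VSIG4 (0.32) and C5AR1 (-0.28).

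Some lists of markers and related genes were, like the member genes, highest on high-RFI replicate 5, and others were not. Macrophage markers (7 of 16 measured) had a mean of 2.27 there, against 0.21 to 1.86 on the other 15 arrays, with 5 of the 7 genes highest there. T and NK cell markers (8 of 12 measured) had -1.25, against -3.88 to -2.16, with 7 of 8 highest there. Interferon-induced genes (18 of 20 measured) had 2.80, against 0.15 to 1.57, with 16 of 18 highest there. Complement receptors (3 measured) had 2.18, against -0.16 to 1.34, with 3 of 3 highest there. The other classical and lectin genes (6 measured) had 1.14, against -0.50 to 0.79, with 3 of 6 highest there. Inhibitors and properdin (8 measured) had 1.21, against 0.31 to 1.02, with 3 of 8 highest there. Acute inflammation genes (12 measured) had 0.94, against -0.60 to 0.33, but only 2 of 12 were highest there, where 11.3% of all probes were. Fibroblast and preadipocyte markers (7 measured) were lowest there, at 0.98, against 1.18 to 2.0. Terminal complement genes (4 measured) were also lowest there, at -2.89, against -2.62 to -1.75. Within the range of the other arrays lay adipocyte (5.49), neutrophil and mast cell (-0.35), B cell (-1.48), epithelium (-4.50), skeletal muscle (-2.66), hepatocyte and plasma protein (-1.37) and endothelial markers (2.69). The part of these lists in the complement values was not tested.

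By group, the mean level of macrophage markers ran from 0.21 to 1.67 in low-RFI pigs, against 0.83 to 2.27 in high-RFI pigs. It ran from 0.21 to 2.27 in replicates 5-8, against 0.76 to 1.86 in replicates 1-4. Interferon-induced genes ran from 0.29 to 1.57 in low-RFI pigs, against 0.15 to 2.80 in high-RFI pigs. Within replicates 5-8 the line difference of interferon-induced genes was negative in 18 of 18 genes (median -0.57), against 16071 of all 32097 probes. Within replicates 1-4 it was positive in 14 of 18 (median 0.29), against 15577 of 32097 probes, with 0 of 18 called in either (limma). T and NK cell markers were negative in 8 of 8 genes in replicates 5-8 (median -0.91) and positive in 6 of 8 in replicates 1-4 (median 0.13), with 0 of 8 called in either. Hepatocyte and plasma protein markers were negative in 6 of 6 in replicates 5-8 (median -0.93) and positive in 5 of 6 in replicates 1-4 (median 0.17), with 0 of 6 called in either. High-RFI replicate 5 enters each count for replicates 5-8, and no count without it is given. Interferon-induced genes averaged 2.80, 0.98, 1.29 and 0.15 in high-RFI replicates 5-8, against 0.99, 0.61, 0.50 and 0.29 in low-RFI replicates 5-8. Genes of 1 list are not independent results. The difference of line differences was negative in 18 of 18 interferon-induced genes (median -1.02), 8 of 8 T and NK cell markers (median -1.12) and 5 of 6 hepatocyte and plasma protein markers (median -1.90), with none of them called. Other lists went the other way. It was positive in 11 of 13 adipocyte (median 0.37), 11 of 11 skeletal muscle (2.48), 4 of 4 neutrophil and mast cell (1.07) and 2 of 2 B cell markers (1.32). It was negative in 6 of 7 macrophage, 5 of 7 fibroblast and preadipocyte, 3 of 4 epithelium and 3 of 7 endothelial markers. The line difference of macrophage markers was negative in 6 of 7 genes in replicates 5-8 and in 5 of 7 in replicates 1-4. Hepatocyte and plasma protein markers (6 measured) ran from -2.11 to 0.46 in low-RFI pigs, against -1.80 to 0.73 in high-RFI pigs, and their part in the complement values was not tested.

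Beside the C4A difference, 4 of the 99 measured genes of the 12 marker lists passed between the sets (limma), all lower in replicates 5-8, a share of 4.04% against 3.18% of all probes. They were LYZ of macrophages (-1.88, adjusted p = 0.0291), TF of the plasma proteins (-1.82, adjusted p = 0.0378), S100A9 of neutrophils (-1.27, adjusted p = 0.0466) and the inflammation gene IL6 (-0.89, adjusted p = 0.023). Neutrophil and mast cell markers (4 measured) ran from -0.35 to 1.34 in replicates 5-8, against -0.68 to 1.87 in replicates 1-4. Their means were 0.15 and 1.17, and 4 of 4 genes were lower in replicates 5-8 (median -1.29), against 17591 of all 32097 probes. Their mean level, named after its values were seen, had r = -0.81 with C4A over 16 pigs, and -0.79 without high-RFI replicate 5. For the other marker lists no gene passed, and the smallest p between the lines belonged to CIDEC (0.31) and DGAT2 (0.38) of adipocytes, DLK1 (0.49) and DCN (0.20) of fibroblasts and preadipocytes, CASQ1 (1.62) and ENO3 (1.11) of muscle and KRT8 (-1.53) and CDH1 (-1.61) of epithelium. It further belonged to GZMK (-0.64) and CD3E (-0.90) of T and NK cells, FCRLA (0.63) and VPREB3 (-0.36) of B cells, SOX18 (-0.33) and ENG (-0.28) of endothelium and CXCL9 (-1.18) and GBP1 (-0.58) of the interferon-induced genes. Between the sets it belonged to LEP (-0.83) and PCK1 (1.21), THY1 (-0.38) and DLK1 (-0.31), TNNC2 (0.46) and MYL1 (3.1), and DSG1 (0.12) and EPCAM (0.38). The remaining lists gave LCK (0.52) and GZMB (0.42), VPREB3 (0.46) and FCRLA (0.07), PECAM1 (-0.34) and CLDN5 (-0.58), and IRF9 (0.46) and IFIT2 (-0.40). The part of these markers in the C4A difference was not tested.

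**Figure D4:**
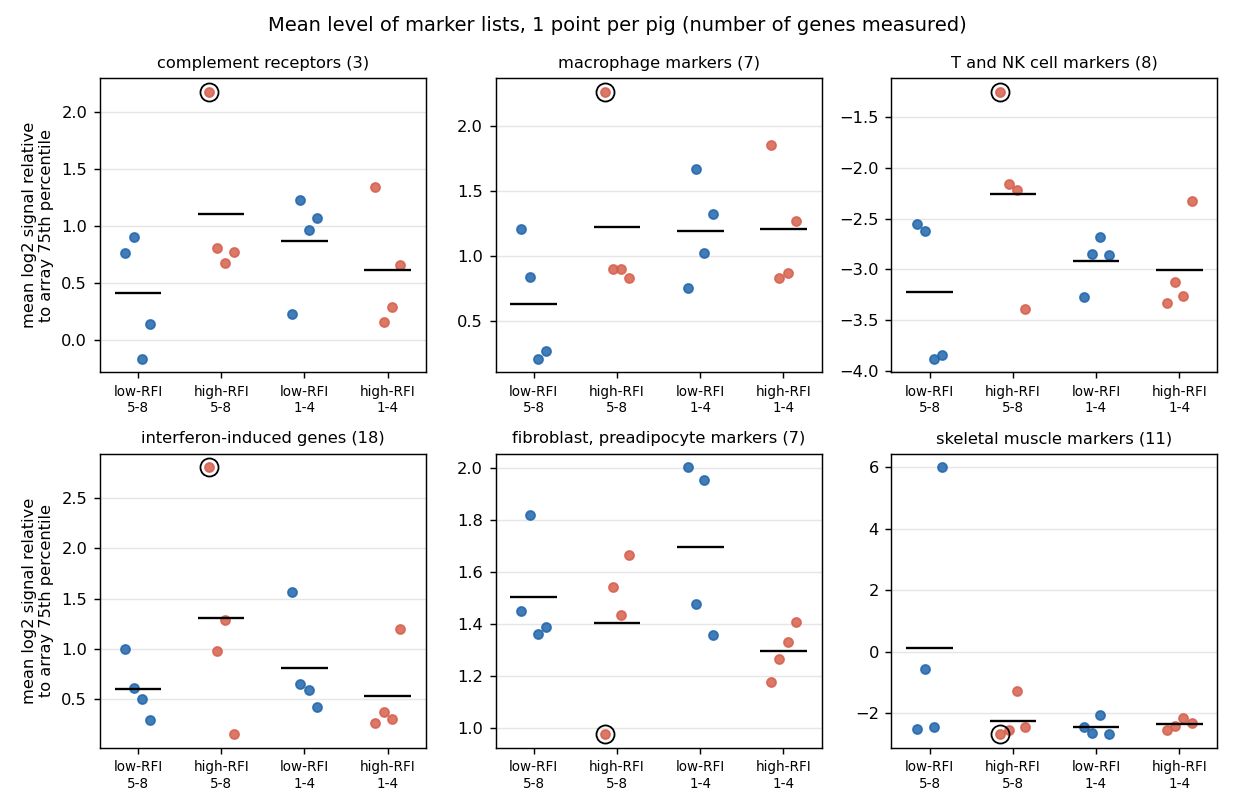
Mean log2 signal of 6 gene lists relative to the array's 75th percentile, 1 point per pig, by line and replicate set, with the mean of each 4 pigs as a bar and the number of measured genes in brackets. The ringed pig, high-RFI replicate 5, is highest for macrophage (2.27), T and NK cell (-1.25) and interferon-induced (2.80) genes, and low-RFI replicate 8 alone reaches 6.0 for skeletal muscle.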

How the data were processed

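RNA was extracted from the fat of each pig using Trizol followed by silica columns, and 150 ng of it was labelled with Cy3 after amplification, per the labels' protocols. The scans were quantified with Agilent Feature Extraction 10.7.3.1, and the deposited processed intensity of a spot has had its background subtracted within the array without any scaling between arrays, per the file headers. The authors' deposited value table holds log2 values equal to log2 processed intensity minus the array's median over 28963 listed spots (r = 1.0), and served as an alternative. The submitters' processing notes name R 2.10.0. The genome build is not given in the sources used here.

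Outlier-flagged spots were dropped, repeated spots of a probe averaged, and each array's 75th percentile was subtracted on the log2 scale. Probes well above background on at least 8 of 16 arrays, with at least 6 values per line, were kept (32097 of 43603). The condition on values per line was chosen with the outlier flags known. Saturation affected none of the spots, and precision is limited by the number of arrays. Probes were named from the files, or through RefSeq accessions in the Sscrofa11.1 gene table.

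limma 3.58.1 in R 4.3.3 tested line (line as the only term), set (line and set as terms) and their combination (means of line by set, 1 spread), two-sided, with Benjamini-Hochberg adjustment over all kept probes and a threshold of 0.05. Correlations used 100000 permutations, or all of them for 8 arrays, adjusted over the 36 pairs (numpy 2.4.6, scipy 1.17.1, Python 3.11.15). The fits were tested on simulated data. The members, lists, set split and rules were chosen with earlier results of these data known. Named genes were all members, list members past the threshold (else the 2 smallest p for line and for set) and the 3 genes most like each member. Alternatives were normexp background correction, quantile and median scaling, the value table, no filter or a filter on all 16 arrays, array weights, slide and replicate blocks, set as a term, single slides, the mean of a gene's probes and leaving out each array. Pigs of equal replicate number were not paired in the main fits.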

Additional observations from a re-analysis of the deposited data

Results flagged for a closer look

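In 6 of the 18 groups of 8 pigs formed by gene and line, 1 pig lay farther from its nearest neighbour than Dixon's limit allows, and each time it was high-RFI replicate 5, the highest of its line. Chance flags about 1 in 20 groups, and over all probes measured on every array 7.78% of groups were flagged and 1.7% of probes were flagged high on this pig. Its values were 4.12 for C1QA (the other 7 high-RFI pigs averaged 1.62), 5.0 for C1QB (2.47), 2.77 for C1QC (0.32), 5.67 for C1S (3.97), 2.14 for C3 (-0.64) and 2.55 for CFB (0.52). C1R at 7.38, C4A at 5.44 and CFD at 6.69 were highest there too, within the limit. The genes rise together, so the flags are not separate observations.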

How the results depend on the processing

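The count of probes past the threshold between replicates 5-8 and 1-4, 1662, was 17 with normexp background correction, 865 without the filter on dim probes and 5316 with array weights, and 603 to 4790 when 1 array was left out (603 with high-RFI replicate 4 removed and 4790 with low-RFI replicate 3 removed). The count between lines was 0 in each alternative except 1 without low-RFI replicate 4, and leaving out 1 array gave 0 to 1 between lines, 0 to 1 between lines in replicates 1-4, and 0 in replicates 5-8 and for the difference of line differences. Correlated pairs numbered 28, and 6 to 33 without 1 array, with 6 without high-RFI replicate 5.

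Set differences of members lost significance only for C4A, under normexp (1.34, adjusted p = 0.151 in limma) and without any of 8 single pigs (1.27 to 1.44). Over all pigs left out in turn it was 1.27 to 1.65. With array weights C4A had adjusted p = 0.0018 in limma. Signs turned with array weights for line differences of C1QA (0.0018), C1QC (0.0282), C1S (0.0686), C4A (0.39) and C3 (0.12) and for CFB in replicates 1-4 (-0.0731). They turned under normexp for line differences of C1S (0.0122) and C4A (0.10) and the set difference of CFB (-0.0064), and with quantile scaling for C1R (-0.0259) and for CFD in replicates 5-8 (-0.14). Normexp moved the all-probe median of the line difference to -0.12. Within slide 1, line differences turned for C1S (0.0838) and CFB (0.49). Within slide 2 that of C1R turned (-0.10). Within slide 3 those of C1QA (0.83), C1QB (0.76), C1QC (0.71), C1S (0.35), C4A (1.14), C3 (2.07) and CFB (0.58) turned, and within slide 4 those of C1QC (0.31), C1R (-0.41) and CFD (-0.24). The causes were not tested.

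Leaving out 1 array gave line differences of -0.31 to 0.13 for C1QA, -0.34 to 0.10 for C1QB, -0.22 to 0.21 for C1QC, -0.0728 to 0.23 for C1R, -0.18 to 0.11 for C1S, -0.20 to 0.22 for C4A, -0.40 to 0.20 for C3 and -0.55 to -0.10 for CFB. Set differences were -0.0184 to 0.45 for C1QA, -0.0286 to 0.48 for C1QB, -0.16 to 0.36 for C1QC, -0.24 to 0.40 for C3 and -0.25 to 0.24 for CFB. Line differences within replicates 1-4 were -0.11 to 0.69 for C3 and -0.30 to 0.57 for CFB, and within replicates 5-8 they were -1.17 to 0.0003 for C3 and -0.0878 to 0.16 for CFD. The difference of line differences kept its sign for all 9 genes in each alternative run.

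Deviations of same-numbered pigs from their line's mean had r of -0.295 to 0.321 over probes. These values cannot decide whether equal numbers stand for something shared, which the labels do not state. With the replicate block 0 probes passed between lines.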
